A study of Mus musculus with 4 samples.

Results

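The corticotropin-releasing hormone (CRH) system was followed through 4 genes, Crh, Crhr1, Crhr2 and Crhbp, taken by gene name from the 56748 genes of single-nucleus RNA-seq count tables of the mouse hippocampus. The rule was a list of gene names with no threshold on a measured value. All 4 genes were among the 37385 genes with at least 1 UMI (a unique molecular identifier, the tag by which each captured transcript is counted). In 56834 nuclei, Crhr1 had 4326 UMIs, Crhbp 693, Crhr2 344 and Crh 40.

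CRH is the neuropeptide that starts the hormonal response to stress, and in the hippocampus it is made by inhibitory interneurons. It acts through CRHR1 and CRHR2, receptors that couple to G proteins and raise cyclic AMP, and the urocortins (Ucn, Ucn2 and Ucn3) are related ligands of the same receptors. CRH-binding protein, the product of Crhbp, is secreted and keeps CRH and urocortin from the receptors.

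Hippocampal nuclei came from 8 pools, each made from 3 male mice. The purchased C57BL/6 mice of the study were 5 to 7 weeks old, and no age was given for its interleukin-1 receptor lines, which were bred in-house. Repeated social defeat (RSD), in which an aggressive intruder entered the home cage for 2 h on each of 6 nights, was compared with undisturbed controls, and nuclei were taken 14 h after the last defeat. Control-Vehicle and Stress-Vehicle mice ate vehicle chow, while Control-PLX5622 and Stress-PLX5622 mice ate chow with PLX5622, an inhibitor of the CSF1 receptor that removes microglia, from 7 days before RSD; no engineered allele was given for these 4 pools. Con-IL-1R1+/+ and Stress-IL-1R1+/+ mice had an intact interleukin-1 receptor gene (Il1r1). In Con-nIL-1R1-/- and Stress-nIL-1R1-/- mice Il1r1 was deleted by a Cre driven from the Vglut2 (Slc17a6) promoter, which is active in glutamatergic neurons, so the inhibitory interneurons that make CRH and its binding protein were not its target. Each condition was thus 1 pool, and a difference between single pools had no replicate check. Stress was tested over the 4 control and stress pairs, and classes of nuclei were compared over the 8 pools, which are the replicates (n = 8). Because pools of different diet and genotype then stand as replicates, the p-values for stress weigh each difference against its spread over the pairs. Those between classes take their smallest value, 0.00781, whenever all 8 pools agree in direction, whatever the spread in size.

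The pools held 7534594 to 58081835 UMIs, with a median of 598 to 5012 per nucleus. The PLX5622 pools stood apart, with medians of 598 and 628 against 1325.5 or more in the other 6, so each value from them rests on few UMIs. No barcode was shared between pools. Il1r1, the targeted gene, was at 5.27 and 4.93 UMIs of the gene for every 1000000 UMIs of the nuclei summed (CPM) in the nIL-1R1-/- pools and at 11.98 to 25.9 CPM in the others. Microglia-like nuclei numbered 2 in each PLX5622 pool and 28 to 105 in the others, which also went with the labels. Nuclei were clustered without the CRH genes, and clusters were named only where marker genes allowed it. The dentate gyrus-like class (DG-like, 8346 nuclei) was led by Prox1, Glis3, Dsp and Trpc6, the CA1-like class (6143) by Fibcd1 and Man1a, and the CA2/3-like class (4073) by Grik4 and Mndal. The Lhx6 inhibitory-like class (2660) was led by Lhx6 and Nxph1, and the other inhibitory classes were a Vip and CGE inhibitory-like class (1674) and a neurogliaform inhibitory-like class (802). A further 19 clusters with 26316 nuclei stayed unnamed and are called by 2 of their leading genes. A mixed inhibitory group of 1505 nuclei was kept apart. Its subclusters had under 3 detected markers, markers against those of their cluster, or over 50 CPM of Slc17a7, the vesicular glutamate transporter of excitatory neurons.

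The 4 genes lie on 4 chromosomes of the GRCm39 build. Crh (ENSMUSG00000049796) is at chr3:19747565-19749655 on the minus strand and is 2.091 kb long. Crhr1 (ENSMUSG00000018634) is at chr11:104023164-104066351 on the plus strand, Crhr2 (ENSMUSG00000003476) at chr6:55067032-55110027 on the minus strand, and Crhbp (ENSMUSG00000021680) at chr13:95567879-95581841 on the minus strand. Their exons cover 1.415 kb in Crh, 3.871 kb in Crhr1, 5.337 kb in Crhr2 and 2.209 kb in Crhbp. Per kilobase of gene, which takes in the introns that nuclear RNA still holds, Crhr1 had 100.2 UMIs, Crhbp 49.6, Crh 19.1 and Crhr2 8.00. Antisense genes of the annotation overlap Crhr1 and Crhr2, and whether counting used strand is not given in the sources used here; the one beside Crhr2, Gm34358, had 7 UMIs.

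The ligands were close to the limit of detection. Crh was found in 38 nuclei (0.0669%), and Ucn, Ucn2 and Ucn3 had 1, 2 and 1 UMIs in all 56834 nuclei. Over all nuclei, Crh had 6, 2, 9 and 13 UMIs in Control-Vehicle, Control-PLX5622, Con-IL-1R1+/+ and Con-nIL-1R1-/-, and 1, 0, 2 and 7 in the matching stress pools. Stress pools thus had fewer Crh UMIs in each pair, but they also had fewer UMIs in all, and in CPM Con-nIL-1R1-/- (0.224) was below Stress-nIL-1R1-/- (0.285).

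What Crh there was lay mostly in inhibitory nuclei. The 3 inhibitory classes held 21 of the 40 UMIs (52.5%): 12 in the Vip and CGE inhibitory-like class and 9 in the Lhx6 inhibitory-like class, with none in the neurogliaform class. All 12 of the former were in subcluster I11, the one that expressed Vip, the interneuron peptide, at 240.8 CPM. There Crh was at 6.48 CPM (95% Poisson interval 3.35 to 11.3; 592 nuclei), with 1, 3, 3 and 5 UMIs in Control-Vehicle, Con-IL-1R1+/+, Con-nIL-1R1-/- and Stress-nIL-1R1-/- and 0 in the other pools. Poisson and binomial intervals here and elsewhere cover counting error only. In oligodendrocyte-like nuclei, which should lack the gene, Crh was found in 0 of 1965, which allows a share of up to 0.153%. These nuclei are shallow, and in CPM a count of 0 there allows up to 1.247, below the level in I11 but above that in the Lhx6 inhibitory-like class (0.811 CPM). The 38 nuclei with Crh were deep, with a median of 6532.5 UMIs against 1854 for the rest. Of them, 55.3% also had a UMI of Gad1, the GABA-synthesizing enzyme, against 10.9% of the rest, and 18.4% against 0.604% had Vip. Scaled to depth, Gad1 was at 145.8 CPM in the Crh nuclei and 61.9 CPM in the rest, higher in 3 pools and lower in 4. Gad2, a second gene of GABA synthesis, was at 126.7 against 50.9 CPM, higher in 5 pools and lower in 2. Excitatory transporters were also found more often, Slc17a7 in 28.9% against 18.2% and Slc17a6 in 13.2% against 2.39%. In CPM, Slc17a7 was at 52.6 against 70.5 (higher in 3 pools, lower in 4). Slc17a6 was at 14.3 against 8.50 CPM (higher in 2 pools, lower in 5). The part of depth in these shares was not tested. The named hippocampal fields held few: the CA1-like and DG-like classes had 2 Crh UMIs each and the CA2/3-like class 1. Among unnamed clusters, Kcnh8/Sntb1 had 3 and Rai14/Col5a1 had 1. The rest lay in groups of nuclei in which stress was not tested.

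Crhr1, the receptor with the higher affinity for CRH, was most abundant in excitatory classes. It was found in 3452 nuclei (6.07%), and in 0.979% when each nucleus was thinned to 500 UMIs, which left out the shallower nuclei and kept 48821. Over all nuclei its level was 20.7 ± 3.35 CPM (SD, n = 8), from 17.8 to 27.0. Most positive nuclei, 2806, had a single UMI, 506 had 2 and 140 had 3 or more.

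Of the 13 classes compared, the highest Crhr1 levels were in unnamed excitatory clusters, those of Igfn1 and Cpa6 and of Tshz2 and Npsr1. The Fermt1/Cd44 cluster, which had only 6 nuclei in Stress-Vehicle and was not compared, was at 63.9 ± 32.6 CPM. In the Igfn1/Cpa6 cluster (2639 nuclei, 14.0% of all Crhr1 UMIs) it was at 35.3, 51.1, 31.4 and 46.8 CPM in Control-Vehicle, Control-PLX5622, Con-IL-1R1+/+ and Con-nIL-1R1-/- and at 69.7, 41.1, 47.9 and 51.9 CPM in their stress pools. It was at 46.9 ± 11.8 CPM there and at 46.6 ± 14.9 CPM in the Tshz2/Npsr1 cluster (SD, n = 8 each). The difference between these clusters was 0.04 on the log2(CPM + 1) scale, with 4 pools in each direction (exact sign-flip permutation test, two-sided, adjusted p = 0.917). The Igfn1/Cpa6 cluster carried markers of both CA1 and cortical or subicular excitatory neurons, and it was given neither name. Both clusters varied in size, from 62 to 700 nuclei per pool for Igfn1/Cpa6 and from 39 to 419 for Tshz2/Npsr1, and the part of this in the levels was not tested.

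Among the named hippocampal fields, Crhr1 was highest in CA1-like and lowest in DG-like nuclei. In CA1-like nuclei it was at 27.9, 29.5, 19.6 and 21.4 CPM in the 4 control pools (in the order Control-Vehicle, Control-PLX5622, Con-IL-1R1+/+ and Con-nIL-1R1-/-, kept below) and at 30.4, 31.5, 28.0 and 26.0 CPM in the stress pools. In CA2/3-like nuclei the controls were at 20.1, 30.1, 15.2 and 14.0 CPM and the stress pools at 28.6, 23.7, 20.6 and 22.3 CPM. In DG-like nuclei the controls were at 12.96, 13.2, 6.58 and 11.2 CPM and the stress pools at 14.1, 12.9, 7.68 and 9.97 CPM. Every CA1-like value lay above every DG-like value. The lowest CA2/3-like value (14.0) lay next to the highest DG-like value (14.1), and CA1-like and CA2/3-like values overlapped.

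The CA1-like mean was 26.8 ± 4.24, the CA2/3-like mean 21.8 ± 5.71 and the DG-like mean 11.1 ± 2.76 CPM (SD, n = 8). CA1-like exceeded DG-like by 1.23 on the log2 scale (SD 0.27) and CA2/3-like exceeded DG-like by 0.92 (SD 0.33), in 8 of 8 pools each (exact sign-flip permutation test, p = 0.00781, the smallest 8 pools allow; adjusted p = 0.0279). CA1-like exceeded CA2/3-like by only 0.31 (SD 0.20), in 7 of 8 pools (adjusted p = 0.0474 by the same exact test), and this call was lost without sublibrary 1, 3 or 4, with 15 components and with doubled clustering resolution. The share of nuclei with a Crhr1 UMI gave no order for that last pair: it was 8.09% in CA1-like and 9.26% in CA2/3-like nuclei, but 1.53% and 1.20% after thinning. In oligodendrocyte-like nuclei the share was 0.254% (0.066% thinned) and the level 2.08 CPM from 5 UMIs, at median depths of 398 to 1626.5 UMIs per pool.

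**Figure D1:**
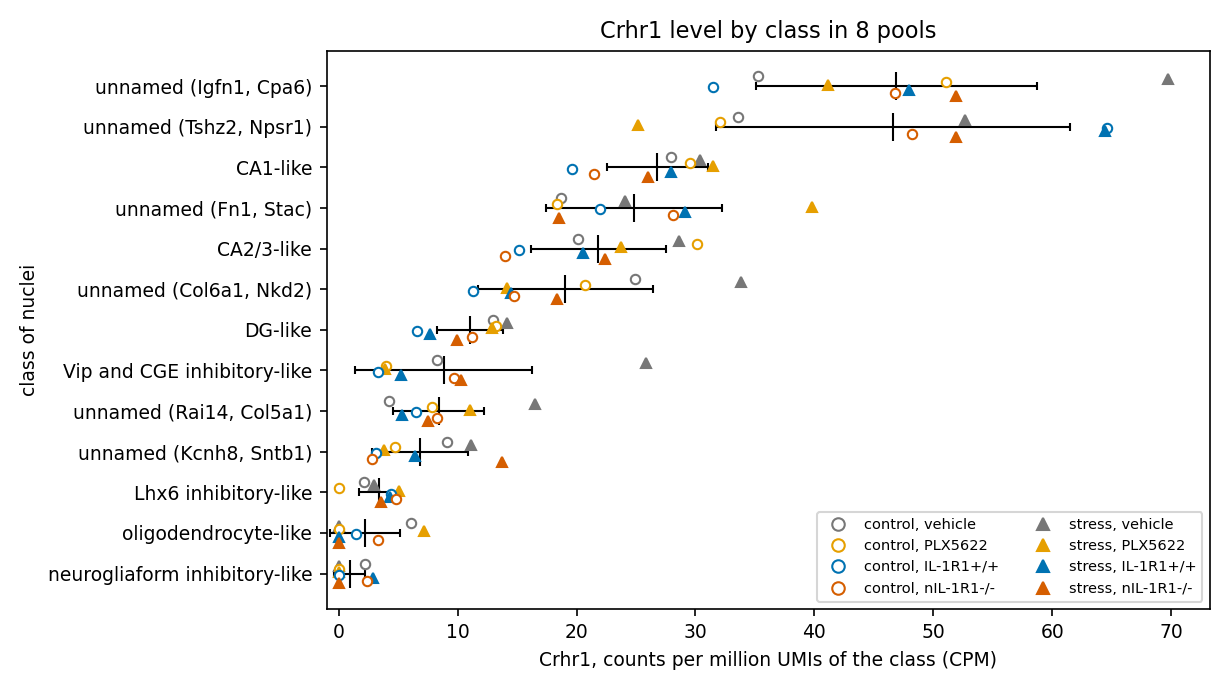
Crhr1 level in CPM (x axis) in 13 classes of nuclei (y axis), with open circles for control pools, filled triangles for stress pools, colours for the 4 pairs, and a bar for the mean ± SD of 8 pools. The Igfn1/Cpa6 and Tshz2/Npsr1 clusters lie highest (means of 46.9 and 46.6 CPM), CA1-like nuclei lie above DG-like nuclei in all 8 pools, and Lhx6 inhibitory-like, neurogliaform inhibitory-like and oligodendrocyte-like nuclei lie lowest.

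The 13 classes were also read in order of mean level. After the Igfn1/Cpa6, Tshz2/Npsr1 and CA1-like classes came the unnamed Fn1/Stac cluster (24.8 ± 7.37 CPM), CA2/3-like nuclei and the Col6a1/Nkd2 cluster (19.1 ± 7.35), then DG-like nuclei, the Vip and CGE inhibitory-like class (8.82 ± 7.41), and the Rai14/Col5a1 (8.41 ± 3.85) and Kcnh8/Sntb1 (6.87 ± 4.04) clusters. Several neighbours in this order did not pass the test, among them Tshz2/Npsr1 and CA1-like (adjusted p = 0.0785, exact permutation test), CA1-like and Fn1/Stac (0.518), Fn1/Stac and CA2/3-like (0.556), and DG-like and Vip and CGE inhibitory-like (0.233). The step from Col6a1/Nkd2 down to DG-like did pass (DG-like minus Col6a1/Nkd2 −0.70, 8 of 8 pools, adjusted p = 0.0279), but it turned to 1.87 after thinning. Classes further apart differed often: 59 of the 93 pairs of classes or subclusters passed for Crhr1, against 12 for Crhr2 and 21 for Crhbp, with p-values adjusted over all 279 tests. Among genes with at least as many UMIs, the same unadjusted p of at most 0.0156 was reached in 36.1% of all gene and pair tests for the level of Crhr1, 23.0% for Crhr2 and 25.7% for Crhbp, against 63.4%, 12.9% and 22.6% for the members themselves.

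The inhibitory classes ranged widely in Crhr1. The Vip and CGE inhibitory-like class was at 8.27, 4.0, 3.27 and 9.71 CPM in the control and 25.8, 3.93, 5.24 and 10.3 CPM in the stress pools, with Stress-Vehicle the highest, and was not separated from DG-like nuclei (0.53 lower, adjusted p = 0.233, exact permutation test). The mixed inhibitory group was at 17.8 ± 3.33 CPM. In the Lhx6 inhibitory-like class Crhr1 was at 2.1, 0, 4.38 and 4.83 CPM in the control and 2.99, 5.04, 4.32 and 3.54 CPM in the stress pools (mean 3.40 ± 1.69, 42 UMIs). CA1-like nuclei exceeded this class by 2.81 and DG-like nuclei by 1.58 on the log2 scale, in 8 of 8 pools each (adjusted p = 0.0279, exact permutation test). Its excess over oligodendrocyte-like nuclei, 0.81, did not pass (adjusted p = 0.276). Neurogliaform nuclei had 4 Crhr1 UMIs in all. Across all nuclei, those with Crhr1 carried Gad1 at 43.4 CPM against 66.5 CPM in those without, lower in 8 of 8 pools, and Slc17a7 at 71.7 against 70.2 CPM.

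Crhr2, the other receptor of CRH and the urocortins, was sparse, with 306 positive nuclei (0.538%, or 0.0881% thinned). DG-like nuclei held the most UMIs of any named class, 64, at 3.76, 1.65, 1.46 and 2.39 CPM in the controls and 3.64, 2.57, 2.56 and 1.92 CPM in the stress pools. By mean CPM the Lhx6 inhibitory-like class (4.11) and the unnamed Tshz2/Npsr1 cluster (3.01, from 23 UMIs) stood higher. Neither differed from DG-like nuclei past the threshold (adjusted p = 0.612 and 0.943, exact permutation test). CA1-like nuclei had 35 UMIs (1.34 ± 0.82 CPM) and CA2/3-like nuclei 13 (0.722 ± 0.872 CPM). DG-like nuclei exceeded CA2/3-like nuclei by 1.11 on the log2 scale (7 of 8 pools) and oligodendrocyte-like nuclei by 1.60 (7 of 8 pools; adjusted p = 0.0474 each, exact permutation test). These calls were fragile: of the 12 for Crhr2, 0 passed without sublibrary 1 or 4, and 3 without sublibrary 2 or with doubled clustering resolution. The excess over CA1-like nuclei, 0.64 in 6 of 8 pools, did not pass (adjusted p = 0.114). Crhr1 had the opposite order in that pair, lower in DG-like than in CA2/3-like nuclei.

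The Lhx6 inhibitory-like class had 52 Crhr2 UMIs, unevenly spread. The controls had 11, 1, 0 and 8 UMIs and the stress pools 1, 1, 22 and 8, or 5.77, 3.48, 0 and 2.97 CPM against 1.49, 2.52, 11.9 and 4.72 CPM. Stress-IL-1R1+/+ alone was above the range of the controls, and its own control was at 0. That is at least 6.34-fold higher in Stress-IL-1R1+/+ than in its control, taking 3 UMIs per pool as the limit for a count of 0 and the 22 UMIs as they stand. With the counting error of both, the lower 95% limit of the log2 ratio was 2.24. There was no replicate check, and the other 3 pairs showed no such step.

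Most of these UMIs, 42 of 52, lay in subcluster I04, led by Lypd6b, Lypd6, Reln and Elfn1 and with Sst, the somatostatin gene, at 44.7 CPM. By pool I04 had 6, 2, 0 and 8 UMIs in the controls and 0, 0, 20 and 6 in the stress pools, which by the same reckoning makes Stress-IL-1R1+/+ at least 6.79-fold higher than its control (lower 95% limit of the log2 ratio 2.33). The 20 UMIs came from 13 nuclei with at most 4 each, whereas the 6 in Control-Vehicle came from 2 nuclei, 5 of them from 1. In Con-nIL-1R1-/- the 8 UMIs came from 4 nuclei, and 1 nucleus held 5 of these UMIs. I04 averaged 13.3 ± 15.5 CPM, and it did not differ from the other inhibitory subclusters beyond the spread of the pools (adjusted p = 0.135 to 0.376, exact permutation test). Within the Lhx6 inhibitory-like class, Sst was found in 31.4% of the 35 Crhr2 nuclei and in 5.30% of the rest, at median depths of 5432 and 2417 UMIs; in CPM it was higher in 4 pools and lower in 3.

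**Figure D2:**
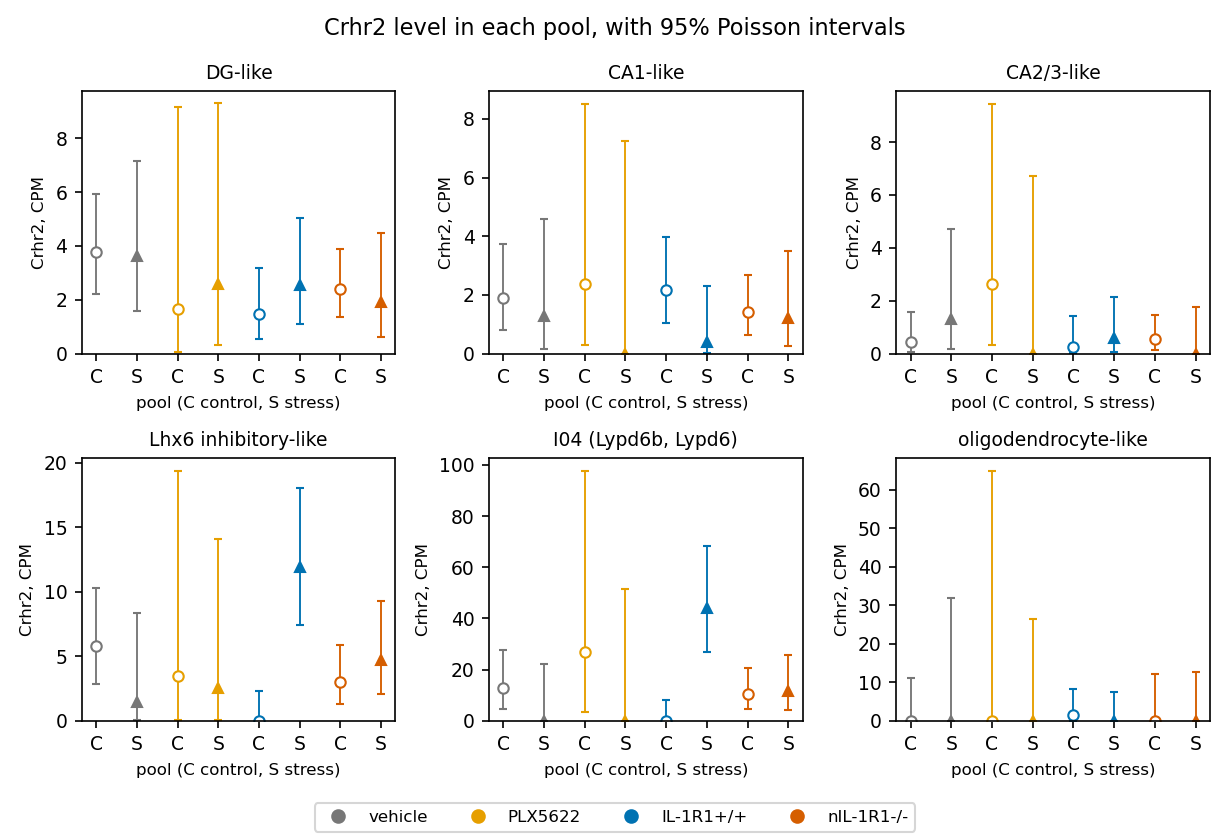
Crhr2 level in CPM (y axis) in each of the 8 pools (x axis; C control, S stress, colours for the pairs) in 6 classes, with 95% Poisson intervals. Stress-IL-1R1+/+ stands at 11.9 CPM in the Lhx6 inhibitory-like class and 44.2 CPM in I04, where Con-IL-1R1+/+ is at 0, while the intervals of the other pairs overlap.

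Crhbp was concentrated in the Lhx6 inhibitory-like class, which held 440 of its 693 UMIs (63.5%) in 4.68% of the nuclei. The controls were at 29.4, 48.7, 40.6 and 40.5 CPM and the stress pools at 20.9, 35.3, 38.9 and 56.7 CPM (mean 38.9 ± 10.98). Control and stress values overlapped throughout. Crhbp was found in 10.9% of these nuclei (1.93% thinned), and in 0 of 1965 oligodendrocyte-like nuclei, which allows up to 0.153%. The class exceeded each of the other 12 in 8 of 8 pools (adjusted p = 0.0279, exact permutation test), by 4.13 on the log2 scale against the Vip and CGE inhibitory-like class, 5.04 against neurogliaform and 5.26 against oligodendrocyte-like nuclei. CA1-like, CA2/3-like and DG-like nuclei had 8, 8 and 9 UMIs in all, 0.347, 0.335 and 0.361 CPM, and so did not stand apart from one another.

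Inside the Lhx6 inhibitory-like class, Crhbp was shared by both somatostatin and parvalbumin (Pvalb) subclusters. It was at 57.6 ± 27.8 CPM in I04 (Sst 44.7 CPM, Pvalb 0), at 43.8 ± 26.0 CPM in I05, led by Tll1 (Pvalb 62.3 and Sst 3.41 CPM), and at 36.2 ± 33.0 CPM in I08, led by Btbd11 and Erbb4 (Pvalb 46.9 and Sst 2.74 CPM). Each of these exceeded I01, I06 and I11, subclusters of the other inhibitory classes, by 4.22 to 5.42 on the log2 scale in 8 of 8 pools (adjusted p = 0.0279, exact permutation test). Among themselves they did not differ beyond their spread (adjusted p = 0.271 to 0.657). Subcluster I09, too small to test, was at 55.1 ± 40.6 CPM with Sst at 16.2 and Pvalb at 5.40 CPM.

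The nuclei with Crhbp were compared with those without. Of the 489 with Crhbp (median 7107 UMIs), 64.2% had Gad1, 51.7% Reln, 32.1% Lhx6, 12.3% Sst and 12.5% Pvalb, against 10.4%, 11.9%, 1.76%, 0.367% and 0.729% of the others (median 1838). Slc17a7 was found in 18.4% against 18.2%, and its level was 38.5 against 71.4 CPM, lower in all 8 pools. The part of depth in these shares was not tested. Within the Lhx6 inhibitory-like class the 289 Crhbp nuclei had Sst at 21.4 CPM against 15.0 (higher in 6 of 8 pools), Pvalb at 26.4 against 28.6 (4 of 8) and Reln, the interneuron matrix protein reelin, at 763 against 460 CPM (7 of 8).

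**Figure D3:**
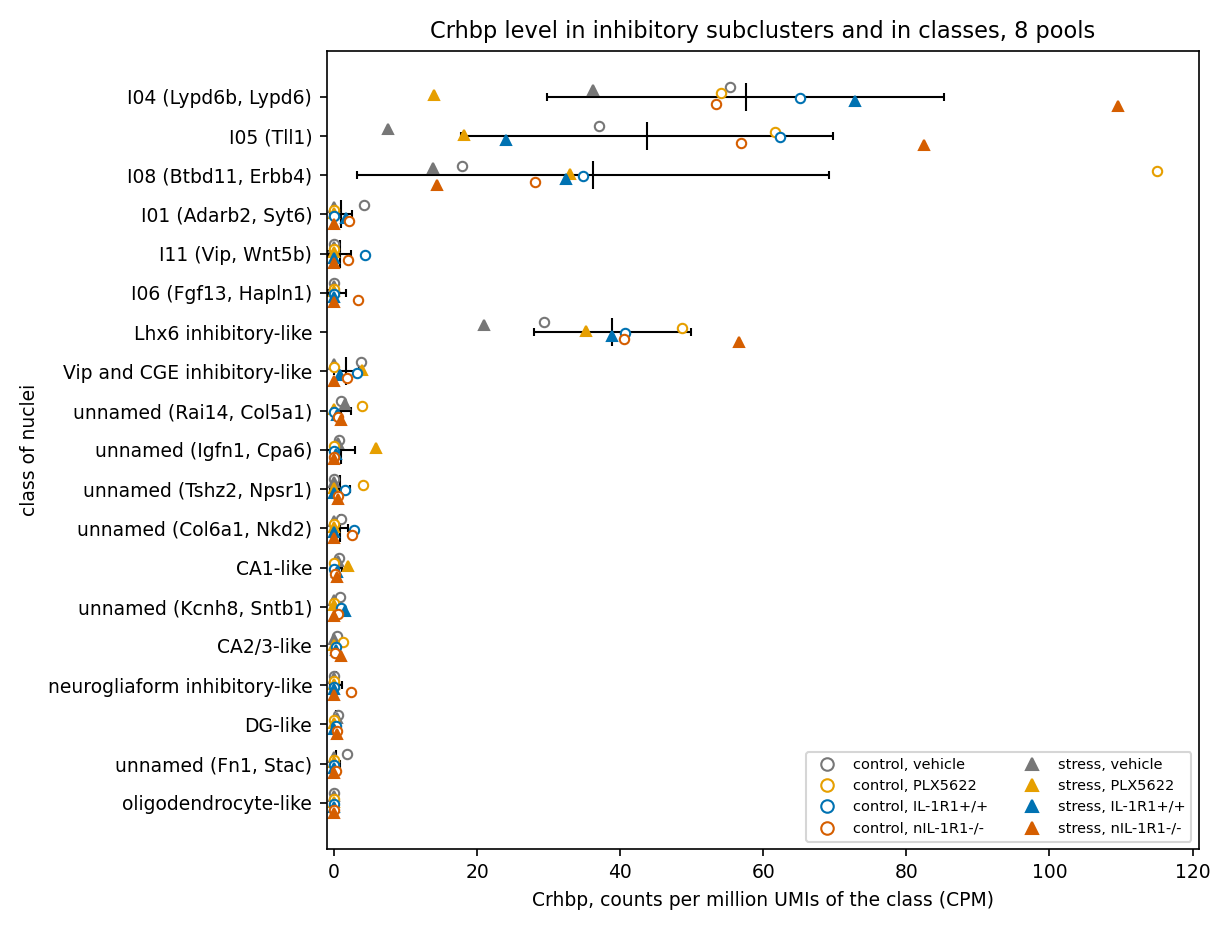
Crhbp level in CPM (x axis) in 6 inhibitory subclusters and 13 classes (y axis), with open circles for control pools, filled triangles for stress pools, colours for the pairs, and a bar for the mean ± SD of 8 pools. I04, I05, I08 and the Lhx6 inhibitory-like class that holds them carry Crhbp in every pool (class mean 38.9 CPM), and every other class lies near 0.

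Members were also counted in the same nuclei, without a test. Crhr1 and Crhbp shared 50 nuclei, 1.45% of those with Crhr1 and 10.2% of those with Crhbp, while 6.07% of all nuclei had Crhr1 and 0.860% Crhbp. Crhr1 and Crhr2 shared 46 nuclei (1.33% and 15.0%) and Crhr2 and Crhbp 15 (4.90% and 3.07%), while 0.538% of all nuclei had Crhr2. The shares of Crhr1 in Crhbp and Crhr2 nuclei, and of Crhbp in Crhr2 nuclei, were thus above those in all nuclei; nuclei with a member were also deeper, with a median of 6860 UMIs for Crhr1 and 7107 for Crhbp, and the part of depth was not tested. Crh occurred with Crhbp in 5 nuclei, with Crhr1 in 4 and with Crhr2 in 1. At these depths many transcripts of a nucleus go unread, so nuclei that carry both genes can be missed.

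Stress against control, the comparison the study was built on, changed none of the members past the threshold. Of 11 tests of a member in a class, 0 passed (edgeR quasi-likelihood test over the 4 pairs, adjusted over all genes of the class). An unadjusted p under 0.05 was reached in 1 with edgeR, Crhr1 in CA2/3-like nuclei, and 0 with DESeq2. In that class 1624 of 10708 genes reached it with edgeR and 904 with DESeq2. DESeq2 gave an adjusted p only for Crhr1 in Igfn1/Cpa6 (0.823) and Tshz2/Npsr1 and for Crhbp in I04, and none passed. The other DESeq2 tests had no adjusted p and so could not pass. The log2 fold change was above 0 in 10 of the 11 with edgeR and 8 of 11 with DESeq2, tests that share pools and partly nuclei. Over all genes tested, the edgeR median was 0.0017 in CA1-like, 0.0021 in CA2/3-like, −0.0009 in DG-like and −0.0045 in Igfn1/Cpa6 nuclei. As background, 64 of 10273 genes (0.623%) passed in CA1-like, 4 of 10708 (0.0374%) in CA2/3-like and 11 of 10873 (0.101%) in DG-like nuclei. Of the clusters where Crhr1 could be tested, Igfn1/Cpa6 had 2.81% of its genes past the threshold, Fn1/Stac 0.24% and Tshz2/Npsr1 0.0405%. For the Crhbp tests the shares were 0.382% in the Lhx6 inhibitory-like class, 0.172% in I04 and 0.791% in I05. In the 3 inhibitory classes summed, where Crhbp and Crhr1 were both tested, it was 0.0351%.

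Among the 11 tests, Crhr1 in CA1-like nuclei moved most evenly. Its stress level was above its control in 4 of 4 pairs, with means of 24.6 and 29.0 CPM in control and stress pools, but the groups overlapped and the log2 fold change of 0.26 (SE 0.17) did not pass (edgeR adjusted p = 0.520). In CA2/3-like nuclei the means were 19.9 and 23.8 CPM (log2 fold change 0.40, SE 0.19, edgeR adjusted p = 0.326), higher in every pair but PLX5622. In the Igfn1/Cpa6 cluster they were 41.1 and 52.7 CPM, again higher in all pairs but PLX5622 (0.45, SE 0.22, adjusted p = 0.387). That cluster had 237 nuclei in Control-Vehicle and 700 in Stress-Vehicle, and 62 and 577 in Con-IL-1R1+/+ and Stress-IL-1R1+/+. It had 149 and 563 in Con-nIL-1R1-/- and Stress-nIL-1R1-/-, but 235 and 116 in Control-PLX5622 and Stress-PLX5622. The part of this shift in nuclei in the Crhr1 level was not tested. DG-like nuclei showed no shift, with a log2 fold change of 0.03 (SE 0.22, 2 of 4 pairs higher, adjusted p = 0.979), and Fn1/Stac and Tshz2/Npsr1 were at 0.11 and 0.05 (adjusted p = 0.934 and 0.995). For Crhr1 in the 3 inhibitory classes summed the means were 3.91 and 6.44 CPM, higher in 3 of 4 pairs (0.49, SE 0.34, edgeR adjusted p = 0.706).

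Among the tests made, Crhbp did not move one way. In the Lhx6 inhibitory-like class it was lower with stress in 3 of 4 pairs and higher in nIL-1R1-/- (log2 fold change 0.03, SE 0.19, edgeR adjusted p = 0.985). In I04 the controls were at 55.4, 54.1, 65.1 and 53.3 CPM and the stress pools at 36.2, 14.0, 72.9 and 109.6 CPM (0.34, adjusted p = 0.940). The stress values of the vehicle and PLX5622 pairs rested on 6 and 1 UMIs, against 26 and 4 in their controls. The highest value, Stress-nIL-1R1-/-, rested on 56 UMIs of which 18 came from 1 nucleus, and was 77.1 CPM without it. In I05 the controls were at 37.1, 61.7, 62.3 and 57.0 CPM and the stress pools at 7.49, 18.1, 24.1 and 82.4 CPM (−0.52, adjusted p = 0.726), so that 3 stress pools lay below every control and Stress-nIL-1R1-/- above all of them. I05 had 97 Crhbp UMIs over all pools and 29 to 38 nuclei in each stress pool, so its low values rest on few UMIs.

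**Figure D4:**
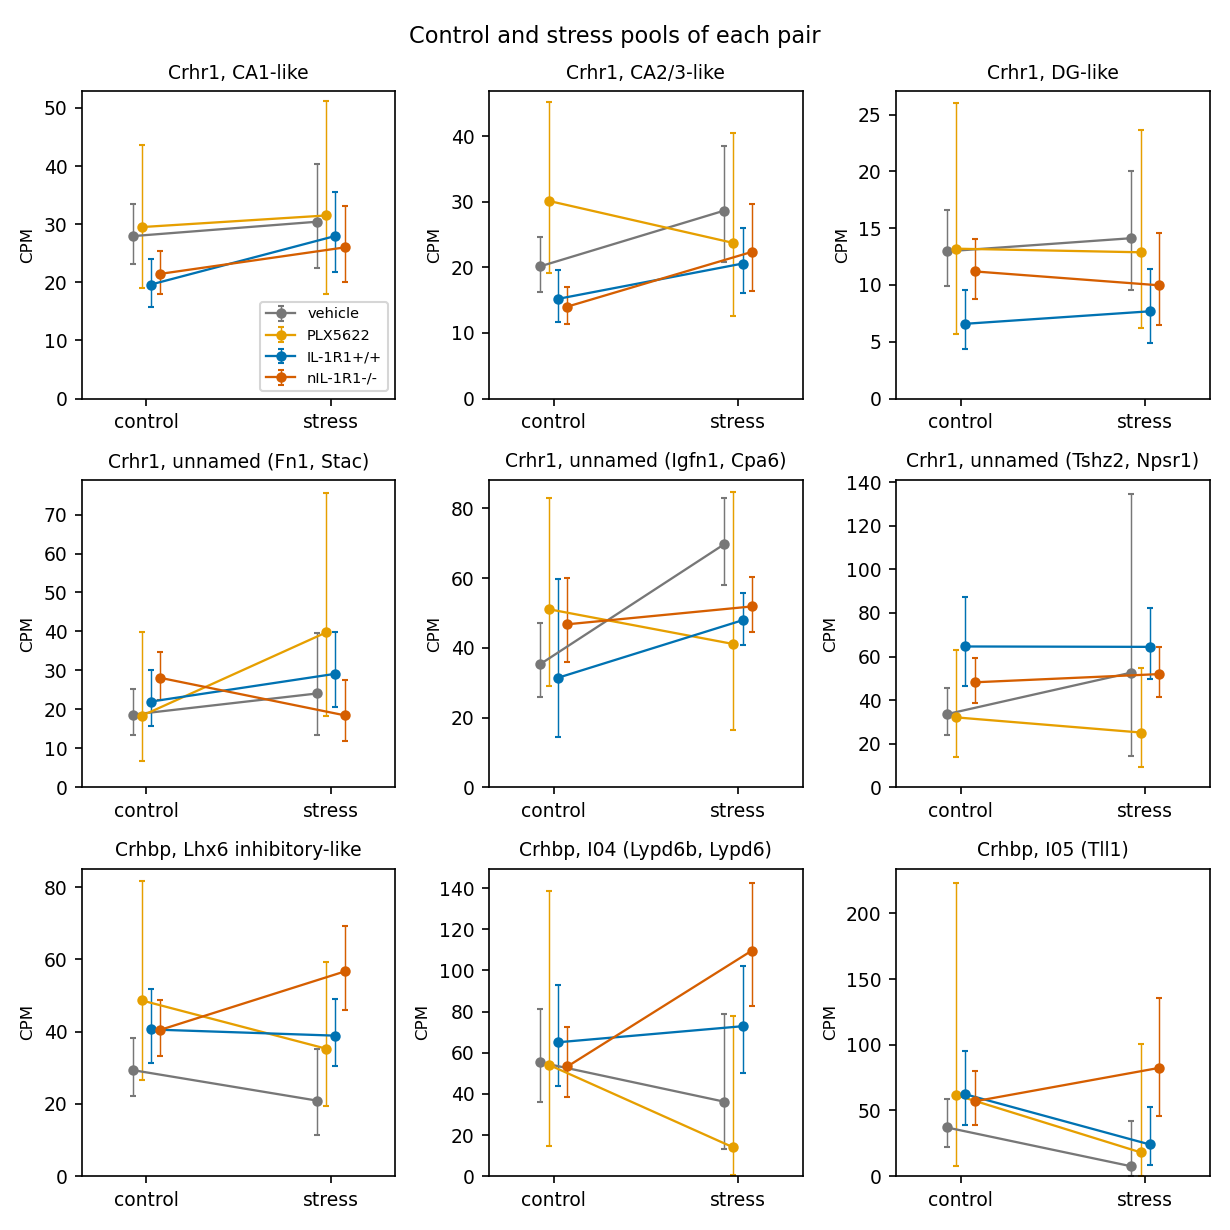
Level in CPM (y axis) in the control and stress pool (x axis) of each of the 4 pairs (colours), joined by a line, with 95% Poisson intervals, for Crhr1 in 6 classes and Crhbp in the Lhx6 inhibitory-like class, I04 and I05. Crhr1 in CA1-like nuclei is higher with stress in all 4 pairs (means of 24.6 and 29.0 CPM), and for Crhbp in the Lhx6 inhibitory-like class the nIL-1R1-/- line alone goes up.

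Crh and Crhr2 passed the filter on low counts in no class, so stress could not be tested for them in the same way. With the filter lifted, 68 tests were possible, of which 0 passed (edgeR) and 2 had an unadjusted p under 0.05. One was Crhr2 in the Lhx6 inhibitory-like class (log2 fold change 1.07, SE 0.48, unadjusted p = 0.0254, adjusted p = 0.845), higher in 2 of 4 pairs. The other was Crhr1 in Igfn1/Cpa6 (0.49, SE 0.23, edgeR unadjusted p = 0.0324). At that cut lay 1225 of 25547 genes in the Lhx6 inhibitory-like class and 1521 of 25774 in Igfn1/Cpa6. Crhr2 in CA1-like nuclei was lower in 4 of 4 pairs (−1.10, not past the threshold), from 1.89, 2.36, 2.16 and 1.42 CPM in the controls to 1.27, 0, 0.411 and 1.2 CPM. Only 35 UMIs stood behind the latter. Crhbp in I08, which the filter had left out, was also lower in 4 of 4 pairs (−0.65, SE 0.42, edgeR adjusted p = 0.999). Its means were 48.9 CPM in the control and 23.4 CPM in the stress pools, from 67 UMIs.

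Loss of neuronal Il1r1 could be read only between single pools, here as log2 ratios with 95% counting intervals and no adjustment for their number. Crhbp in the Lhx6 inhibitory-like class was close in the control pools of both genotypes (Con-nIL-1R1-/- to Con-IL-1R1+/+ −0.00, −0.46 to 0.46), with an interval that allows a difference either way. It was higher in Stress-nIL-1R1-/- than in Stress-IL-1R1+/+ (0.54, 0.09 to 1.00) and than in Con-nIL-1R1-/- (0.48, 0.07 to 0.89). Of its 96 UMIs, 18 came from 1 nucleus, and without that nucleus, left out after its value was seen, the level was 46.6 CPM and both intervals included 0 (0.26, −0.22 to 0.74, and 0.20, −0.24 to 0.63). Crhr2 in the Lhx6 inhibitory-like class was lower in Stress-nIL-1R1-/- than in Stress-IL-1R1+/+ (−1.33, −2.71 to −0.11), and so in I04 (−1.91, −3.52 to −0.54), whereas in the control pools it had 8 UMIs in nIL-1R1-/- and 0 in IL-1R1+/+ in the class and in I04. In I04, 5 of the 8 UMIs came from 1 nucleus. Crhr1 in DG-like nuclei of the control pools was higher in nIL-1R1-/- than in IL-1R1+/+ (0.77, 0.11 to 1.46), and the interval for the stress pools included 0 (0.38, −0.48 to 1.24). There Con-IL-1R1+/+ (6.58 CPM, 27 UMIs) was the lowest pool, and Con-nIL-1R1-/- (11.2 CPM) lay below Control-Vehicle (12.96) and Control-PLX5622 (13.2). In CA1-like nuclei the control pools differed by 0.13 (−0.26 to 0.53). For Crhr1 in CA2/3-like, Igfn1/Cpa6 and Tshz2/Npsr1 nuclei both genotype intervals included 0. So did those for Crhr2 in DG-like nuclei and Crhbp in I04. Il1r1 itself, in DG-like nuclei, was at 61.6 and 28.8 CPM in Con-IL-1R1+/+ and Stress-IL-1R1+/+ and at 11.5 and 9.20 CPM in the nIL-1R1-/- pools. The mice and the depth differ between such pools along with genotype, and their parts cannot be told apart.

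For the diet, the control pools gave wide intervals. PLX5622 to vehicle was 0.08 (−0.61 to 0.71) for Crhr1 in CA1-like nuclei, 0.58 (−0.15 to 1.253) in CA2/3-like nuclei and 0.53 (−0.39 to 1.38) in Igfn1/Cpa6, and 0.73 (−0.23 to 1.59) for Crhbp in the Lhx6 inhibitory-like class. All included 0, and at this depth changes of this size were not detectable.

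The wider pathway was read from 30 genes that act with the CRH system: its urocortins, peptide-processing enzymes, G proteins and adenylyl cyclases, receptor kinases and arrestins, and the corticosteroid receptors with Fkbp5. In each class 18 to 27 of them could be tested, and 3 tests passed, all downward with stress and in the unnamed excitatory clusters. These were 2 of 26 tests in Igfn1/Cpa6, where 2.81% of all genes passed, and 1 of 26 in Rai14/Col5a1. In Igfn1/Cpa6, Nr3c2, the mineralocorticoid receptor, was at 482, 364, 545 and 434 CPM in the controls and 255, 341, 302 and 331 CPM in the stress pools, with no overlap. It fell by 0.62 on the log2 scale there (SE 0.16, edgeR adjusted p = 0.0291), and in Rai14/Col5a1, where 0.62% of all genes passed, by 0.91 (SE 0.15, adjusted p = 0.00452; 334, 357, 447 and 460 CPM against 234, 203, 223 and 198). Adcy8, a calcium-stimulated adenylyl cyclase, fell by 0.74 in Igfn1/Cpa6 (SE 0.16, adjusted p = 0.00928), from 295.1, 373.5, 419.3 and 382.4 CPM to 171.0, 322.9, 174.6 and 261.8 CPM. The controls and stress pools overlapped for Adcy8, and all 4 pairs were lower. Under 14 other settings Adcy8 passed in 9 and Nr3c2 in 7 in Igfn1/Cpa6, whose number of nuclei moved with stress as given above, and Nr3c2 passed in 12 in Rai14/Col5a1, with adjusted p = 0.0745 without the nIL-1R1-/- pair and 0.312 after thinning. Without the replicate block the Igfn1/Cpa6 calls were lost (adjusted p = 0.135 each), as they were without the vehicle, IL-1R1+/+ or nIL-1R1-/- pair (0.0612 to 0.274). The Rai14/Col5a1 cluster also grew with stress, from 110 to 406 nuclei in the IL-1R1+/+ pair and from 300 to 493 in the nIL-1R1-/- pair. It changed little in the vehicle pair (252 to 260) and the PLX5622 pair (205 to 191). The part of these shifts in nuclei in the Nr3c2 and Adcy8 levels was not tested.

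In the other 13 classes and subclusters 0 of the pathway genes passed (edgeR). Nr3c2 again stood lower in 4 of 4 pairs in CA1-like (log2 fold change −0.35, adjusted p = 0.108), CA2/3-like (−0.47, 0.0893), DG-like (−0.37, 0.217) and Fn1/Stac nuclei (−0.38, 0.224), none past the threshold. Nr3c1, the glucocorticoid receptor, was at −0.53 in CA1-like nuclei (edgeR adjusted p = 0.0767). Of the CRH receptors' effectors, Adcy1, another calcium-stimulated cyclase, was at 0.35 in CA1-like nuclei, higher in 4 of 4 pairs (adjusted p = 0.135), and Gnaq, the alpha subunit of Gq, at −0.44 in CA2/3-like nuclei (adjusted p = 0.136). Fkbp5, a corticosteroid-induced chaperone partner, was at 1.48 (SE 0.37) in neurogliaform nuclei, higher in 4 of 4 pairs (adjusted p = 0.242). In that class and in Col6a1/Nkd2, 0% of all genes passed (edgeR 0 of 4501 and 0 of 4089, with 293 and 379 at an unadjusted p under 0.05; DESeq2 0 in each). The remaining backgrounds were 0.135% in the Vip and CGE inhibitory-like class and 0.0299% in Kcnh8/Sntb1. The list's median log2 fold change was −0.13 in CA1-like, −0.18 in CA2/3-like, −0.11 in DG-like and 0.02 in Lhx6 inhibitory-like nuclei, beside a median of 0.00 over all genes tested in CA1-like nuclei.

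Genes whose level followed a member across the 35 classes and clusters were ranked by Pearson's r of log2(CPM + 1) over 14791 genes, as a description, since classes share pools and depth. For Crhbp they were Sst (r = 0.94), Gm31218 (0.86), Cdk15 (0.86), Alkal2 (0.85) and Pvalb (0.83). For Crhr1 they were Lingo1 and Rtn4r (0.89 each), both parts of a receptor for myelin inhibitors on axons, then Celf2, Vipr1 and Ltk (0.87 each). For Crhr2, where few UMIs stood behind each class, they were Gm30363 (0.77), Gm43154, Gm49673, the synaptic zinc transporter Slc30a3 (0.73) and Gm1715. For Crh they were Gm31218 (0.82), Col6a5, Grpr, Tspan2os and Slc17a8 (0.76), from 40 UMIs.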

How the data were processed

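The deposited files hold raw UMI counts per gene and nucleus from 4 Parse sublibraries, made by the authors with the Parse pipeline on mm39 and Seurat 4.1.1; pools were read from the authors' table of nuclei. Nuclei over 20% mitochondrial UMIs (516 of 57350) were left out. Normalised counts were clustered (scanpy 1.11.5, 2000 variable genes, 30 components, Leiden resolution 1.0) without the members, urocortins and mitochondrial genes. No doublets were removed, because Scrublet's automatic threshold was uneven, marking 0 to 3 nuclei in 6 pools but 1492 and 789 in Con-nIL-1R1-/- and Stress-nIL-1R1-/-; the highest 6% of scores in each pool were left out as an alternative. CPM, shares and exact Poisson, binomial and Clopper-Pearson intervals came from summed counts. Classes were compared by exact sign-flip tests on log2(CPM + 1), and p-values were adjusted by Benjamini-Hochberg. Groups compared or tested had at least 20 nuclei in every pool and at most 50% from 1 pool. Neuron classes also needed a median of 1000 to 5000 UMIs and no non-neuronal marker among their leading genes. Inhibitory subclusters needed a median of at least 1000 UMIs and were not mixed. Oligodendrocyte-like nuclei were added as a background. Outside the depth limits were Mmel1/Bc1 (5687 nuclei, median 443 UMIs), Bc1/Bex2 (3718, median 518) and Glis3/Chst9 (1476, median 7340). Stress was tested with edgeR 4.0.16 (TMM, filterByExpr, pair as a term), with DESeq2 1.42.0 as an alternative, at an adjusted p under 0.05. Pairs shared diet or genotype by design; deviations of paired pools correlated at −0.00636 to 0.242 over 76 checks. Coordinates came from the GRCm39 reference annotation (GENCODE release M39). The stress test and the class comparison were tried on simulated data, drawn without pair effects for the stress test. The pathway genes named are those past the threshold, otherwise among the 3 with the smallest p of a class. Members and lists were chosen with earlier results of these data known.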

Additional observations from a re-analysis of the deposited data

Results flagged for a closer look

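Crh stood apart in 1 pool. In the 3 inhibitory classes summed it was at 1.97 CPM (6 UMIs) in Stress-nIL-1R1-/- and at 0 to 0.299 CPM in the other stress pools, a gap large for the range of 4 values. This was the only value of its kind in 50 groups of 4 pools, and chance marks about 1 in 20 such groups. With 6 UMIs, 5 of them in the Vip-expressing subcluster I11, the difference was not tested.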

How the results depend on the processing

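Under 14 other settings 0 of the possible stress tests of members passed (9 to 14 tests, 68 without the filter and 1 after thinning). The smallest adjusted p was between 0.208 and 0.823, and 0.584 without the replicate block of pairs. The 0.823 came from DESeq2, which gave an adjusted p in only some of its tests. No call changed. Several small fold changes turned sign: Crhr1 in DG-like nuclei without the low-count filter (−0.0041), without high Scrublet scores (−0.081) and with 15 components (−0.032), Crhbp in Lhx6 inhibitory-like nuclei with DESeq2 (−0.061), doubled resolution (−0.021) and without I04 (−0.19), Crhr1 in Tshz2/Npsr1 without high Scrublet scores (−0.00011), and in the 3 inhibitory classes Crhr1 with the mixed group added (−0.26) and Crhbp with DESeq2 (−0.0094). The settings without I04 and with the mixed group were chosen after seeing the data. Leaving out each pair gave −0.040 to 0.12 (Crhr1, DG-like), −0.023 to 0.48 (Crhr1, Fn1/Stac), and for Crhbp −0.27 to 0.13 (Lhx6 inhibitory-like), −0.28 to 0.24 (3 inhibitory classes) and −0.20 to 0.54 (I04). The pairs of classes that passed fell from 59 (Crhr1), 12 (Crhr2) and 21 (Crhbp) to 0, 0 and 0 after thinning to 500 UMIs. They also fell to 0, 0 and 0 without the PLX5622 pools, where 6 pools allow no adjusted p under 0.0980. All 92 kept their direction there, 84 at the smallest p of 0.03125 (exact permutation test). A pair with the same direction in every pool must do both, so this is no separate support. Crhr2 had 22 with 15 components and 3 with doubled resolution. Leaving out each sublibrary gave 39 to 55, 0 to 13 and 15 to 21. Turned class differences for Crhr1 were, after thinning, DG-like minus Col6a1/Nkd2 1.87, Vip and CGE minus Col6a1/Nkd2 0.80, and Col6a1/Nkd2 minus Kcnh8/Sntb1 −0.78 and minus Rai14/Col5a1 −1.04; without 1 sublibrary DG-like minus Col6a1/Nkd2 ranged from −0.90 to 0.16 and Igfn1/Cpa6 minus Tshz2/Npsr1 from −0.083 to 0.19, the latter also −0.17 without PLX5622 and −0.15 with 15 components. Of 25 levels, 3 moved by more than 1 SD of the pools: Crhr1 thinned to 31.1 CPM in CA1-like and 7.83 CPM in Col6a1/Nkd2 nuclei, and Crhr2 to 0.132 CPM in Tshz2/Npsr1 with 15 components. Within 1 SD, but by over 1.5 times, Crh in the 3 inhibitory classes went from 0.871 to 0.524 CPM without sublibrary 1 and to 1.33 CPM after thinning, Crhr2 under the same settings from 13.3 to 8.37 and 8.74 CPM in I04 and from 4.11 to 2.64 and 2.73 CPM in Lhx6 inhibitory-like nuclei, Crhr2 in the 3 inhibitory classes from 2.85 to 1.50 CPM after thinning, and Crhbp in I08 from 36.2 to 23.6 CPM without PLX5622. The cause was not tested. Depth limits Crh, the urocortins, Crhr2 and every PLX5622 value.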
